A study of Arabidopsis thaliana with 6 samples.

Results

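AT5G50290 and AT5G38080 are 2 genes, of 16550 measured under a name, whose transcripts were bright in cells sorted for a sieve element reporter, SEOR1-YFP, and dim in the cells sorted as negative for it. They were chosen by their deposited values themselves: every YFP-positive value was at least 8 and every YFP-negative value at most 4 on the log2 scale, read from the probe set with the highest mean among those paired with exactly 1 gene. The cut-offs were met by 9 genes, of which the rule left out 7 by name. The reference gene table lists both as protein-coding genes of chromosome 5 under a locus tag and clone-derived names, with no product name, so no function is given for either here. Because the YFP-positive and YFP-negative values chose them, their levels and differences are given as a description, and the adjusted p-values beside them support nothing further.

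All arrays came from Arabidopsis thaliana of genotype SEOR1pro::SEOR1-YFP, in which the SEOR1 promoter drives a yellow fluorescent fusion of the SEOR1 protein. Seedlings were 6 days old, and their cotyledons were kept for 72 hours in an induction medium. It held 1.25 mg/L of the synthetic auxin 2,4-D, 0.25 mg/L of the cytokinin kinetin and 10 µM of bikinin, which inhibits GSK3-like kinases. This culture, called VISUAL, turns leaf mesophyll cells into vascular cells. Protoplasts were sorted by fluorescence into YFP-positive cells, which carry the label phloem, and YFP-negative cells, whose labels name no cell type and which the design text calls non-phloem, with 3 arrays in each group. The labels do not say that replicates came from separate cultures, so a p-value reflects the spread among these 6 arrays alone, part or all of which may be technical.

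Sieve elements are the conducting cells of the phloem. As they mature they lose the nucleus and much of the cell content while staying alive beside companion cells, and the genes they need are transcribed before that loss. SEOR1 is a structural protein that forms filaments inside them, so a SEOR1 reporter marks cells that have entered this path. In sorted pools a higher value can come from more cells that express a gene or from more RNA in each such cell, and these cannot be told apart here.

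AT5G50290 stood at 9.0, 9.18 and 9.81 on the log2 scale on YFP-positive arrays 1 to 3, and at 2.60, 1.17 and 3.46 on YFP-negative arrays 1 to 3. The YFP-positive arrays lay within 0.81 of each other, and the YFP-negative arrays were spread over 2.29, lowest on array 2 and highest on array 3. The groups were parted by a gap of 5.54 between the lowest YFP-positive and the highest YFP-negative value. The means were 9.33 ± 0.42 (SD, n = 3) and 2.41 ± 1.16 (SD, n = 3). The log2 difference, YFP-positive minus YFP-negative, came to 6.92 (SE 0.61).

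The YFP-negative values of AT5G50290 lay close to the median of all probe sets on the same array. They were 0.05 above it on array 1, 0.93 below it on array 2 and 0.65 above it on array 3, whereas the YFP-positive values were 6.39 to 6.98 above it. Whether such dim values reflect transcript or background was not tested, so no fold is given. With every value under 3 set to 3, the log2 difference was 6.18.

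AT5G38080 stood at 9.07, 8.35 and 9.38 on the log2 scale on YFP-positive arrays 1 to 3, and at 1.5, 2.91 and 1.33 on YFP-negative arrays 1 to 3. Array 2 was the lowest of the YFP-positive arrays and the highest of the YFP-negative arrays, so the groups came closest there, with a gap of 5.44. The means were 8.94 ± 0.53 (SD, n = 3) and 1.92 ± 0.87 (SD, n = 3). The log2 difference came to 7.02 (SE 0.52), or 5.94 with every value under 3 set to 3.

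On YFP-negative arrays 1 and 3, AT5G38080 lay 1.05 and 1.47 under the array's median. On YFP-negative array 2 it lay 0.82 above that median. Its YFP-positive values were 6.15 to 6.47 above the medians of their arrays.

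**Figure D1:**
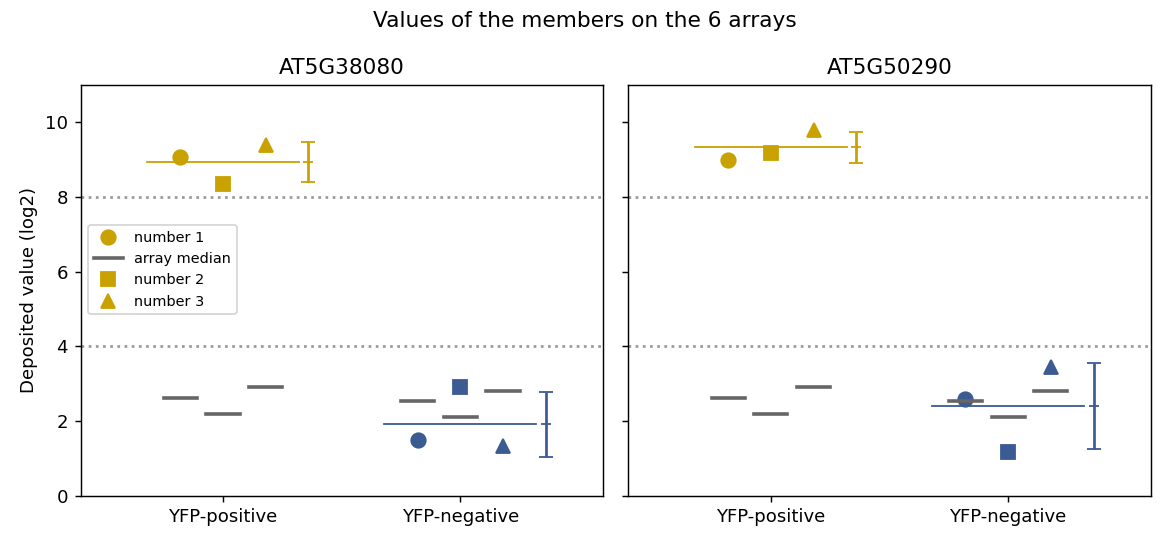
Deposited log2 values (vertical axis) of AT5G38080 and AT5G50290 on the YFP-positive and YFP-negative arrays, with the marker shape giving the replicate number, thin lines the group means, bars the SD (n = 3), short grey lines the median of each array and dotted lines the cut-offs of 8 and 4. In YFP-negative cells the square of array 2 is the highest point of AT5G38080, at 2.91, and the lowest of AT5G50290, at 1.17.

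As deposited, the pair of genes differed in how they varied between replicates. Within replicate numbers 1, 2 and 3 the log2 difference of AT5G50290 was 6.40, 8.01 and 6.35, largest in number 2. That order rests on its YFP-negative value of 1.17 on array 2, which is under the floor of 3 used above. Whether a value so dim reflects transcript or background was not tested. That of AT5G38080 was 7.57, 5.44 and 8.05, smallest in number 2. Among all 9 genes that met the cut-offs, YFP-negative array 2 held the highest YFP-negative value for 3 and the lowest for 4. Neither position of that array was thus shared by the set. How number 2 ranked among the within-number differences of the 9 genes was not counted.

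In limma across all genes, both AT5G50290 (adjusted p = 0.0102) and AT5G38080 (adjusted p = 0.0062) were called higher in YFP-positive cells, against 0.858% of the 16550 genes. In the fit with a replicate block, 0.495% of all genes were called higher, AT5G50290 among them (adjusted p = 0.0444) and AT5G38080 not (adjusted p = 0.0542). Leaving out YFP-positive replicate 3 raised the limma adjusted p of AT5G50290 to 0.0753. The rule used the same contrast, so nothing is read from these calls.

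The cut-offs divided a continuous range of values. AT1G54530, AT5G03510 and AT4G00890 met the lower cut-off and missed the upper with lowest YFP-positive values of 7.97, 7.96 and 7.94 on the log2 scale, in each case on array 2. AT1G29380, BGLU33 and AT5G04700 met the upper cut-off and missed the lower with highest YFP-negative values of 4.09, 4.35 and 4.35. The corresponding limits of the members were 8.35 and 2.91 for AT5G38080, and 9.0 and 3.46 for AT5G50290. Every YFP-positive value was at least 8 for 1066 genes and every YFP-negative value at most 4 for 8679 genes, and 0 genes met the cut-offs with the groups exchanged.

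**Figure D2:**
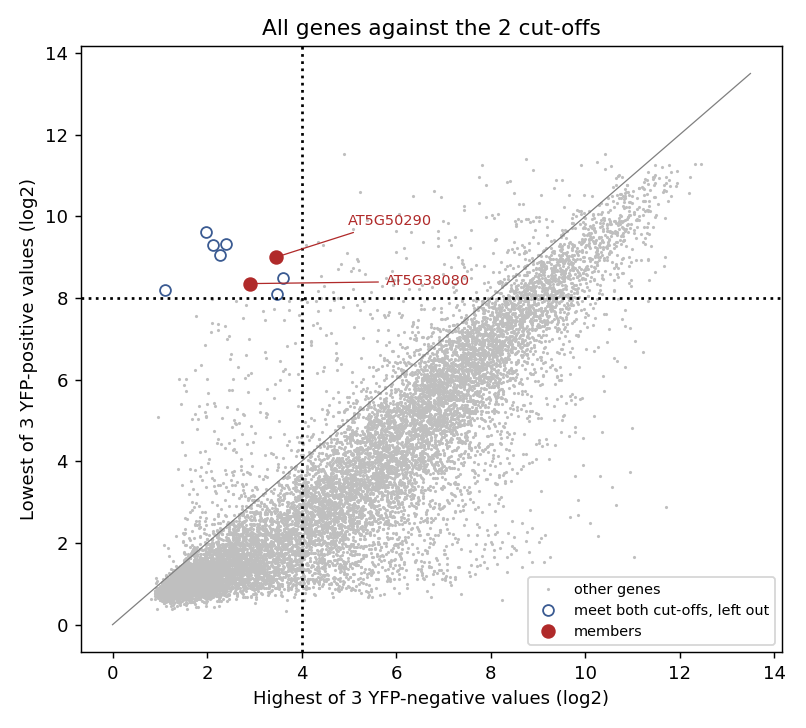
Each point is a gene, placed by the highest of its 3 YFP-negative values (horizontal axis, log2) and the lowest of its 3 YFP-positive values (vertical axis, log2), with the cut-offs as dotted lines and equal values as the grey diagonal. The 9 genes that met the cut-offs lie in the upper left corner, the members as filled red points at 8.35 and 9.0 on the vertical axis and the 7 left-out genes as open circles.

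Some of the genes around AT5G38080 had higher mean values in YFP-positive cells, though none of them was called. Of the 10 reference genes around it, 5 on each side, 7 were measured under a name, 5 of these had a difference above 0, as did 45.3% of all genes, and in 3 every YFP-positive value exceeded every YFP-negative value, as in 4.96% of all genes. In limma 0 of the 7 were called, with or without the replicate block. An unadjusted p under 0.05 was reached by 3 of the 7 in either fit, and by 7.96% of all genes without the block and 13.8% with it. The neighbours carry no product name in the reference table except ASF1B, a histone chaperone. Directions of transcription were not analysed here, and whether neighbouring probe sets share transcripts was not tested.

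The next gene on the lower-numbered side, AT5G38070, stood at 10.06, 10.52 and 10.19 on the log2 scale on YFP-positive arrays 1 to 3, and at 2.93, 8.16 and 4.39 on YFP-negative arrays 1 to 3. Its groups did not overlap, but YFP-negative array 2 stood far above the other YFP-negative arrays. The log2 difference was 5.10 (SE 1.28, adjusted p = 0.214 in limma), and its differences within numbers 1 to 3 were 7.12, 2.36 and 5.80. Without YFP-negative replicate 2 the difference was 6.59 and passed (adjusted p = 0.00636 in limma). AT5G38070 was called in 3 of 12 alternative settings in all. The others were a trended robust prior and the removal of both arrays of number 2, which was chosen after seeing the data.

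The next gene on the other side, AT5G38090, stood at 5.18, 3.77 and 5.03 on YFP-positive arrays 1 to 3, and at 2.09, 1.39 and 1.1 on YFP-negative arrays 1 to 3. Its groups did not overlap, and its YFP-negative values were all below the medians of their arrays. The log2 difference was 3.13 (SE 0.48) and was not called (adjusted p = 0.0506 in limma, or 0.0735 with the replicate block). It was called in 5 of 12 alternative limma settings, with an adjusted p of 0.0151 after quantile normalization and 0.0136 after median centring.

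Farther out on the side of AT5G38070, AT5G38050 and AT5G38060 also had higher means in YFP-positive cells and did not pass. AT5G38050 stood at 6.44, 5.78 and 6.75 on YFP-positive arrays 1 to 3 against 3.91, 5.31 and 3.33 on YFP-negative arrays 1 to 3, without overlap (log2 difference 2.14, adjusted p = 0.245 in limma). AT5G38060 had values of 6.57, 6.84 and 4.67 against 1.37, 5.04 and 4.12, which overlapped (log2 difference 2.52, adjusted p = 0.658 in limma). In AT5G38050, AT5G38060, AT5G38070 and AT5G38080 alike, array 2 held the highest YFP-negative value, and in AT5G38090 array 1 did.

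Beyond these genes the values no longer parted the groups. AT5G38040, AT5G38100 and ASF1B had log2 differences of 0.55, -0.07 and -0.44, with an adjusted p of 1.0 each in limma. AT5G38040 and AT5G38100 had YFP-positive means of 2.07 and 1.04, and ASF1B of 4.17.

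AT5G50290 had no such surroundings among the genes measured. Of the 10 reference genes around it, 2 were measured under a name, and 0 were called in limma (0 with an unadjusted p under 0.05). Its immediate neighbours, EMB1006 and AZG2, were not analysed here. AT5G50270 stood at 1.29, 1.03 and 2.01 on YFP-positive arrays against 1.29, 0.92 and 1.55 on YFP-negative arrays, dim throughout. AT5G50310 had values of 5.59, 3.15 and 4.48 against 5.59, 5.57 and 4.55, with a log2 difference of -0.83. AT5G50270 and AT5G50310 had equal values on both arrays of number 1, as did 13489 of the 38408 probe sets.

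Of all 16550 genes, 0.858% were called higher in YFP-positive cells in limma. Among the genes so called, 102 had a next gene measured under a name. For 18 of these (17.6%) a next gene was called higher as well. The matching share was not computed over all genes with a measured next gene, so nothing is read from the 17.6%. AT5G38080 was not among these 18 at the threshold used. AT5G50290 had no next gene measured under a name, so it could not be among them.

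**Figure D3:**
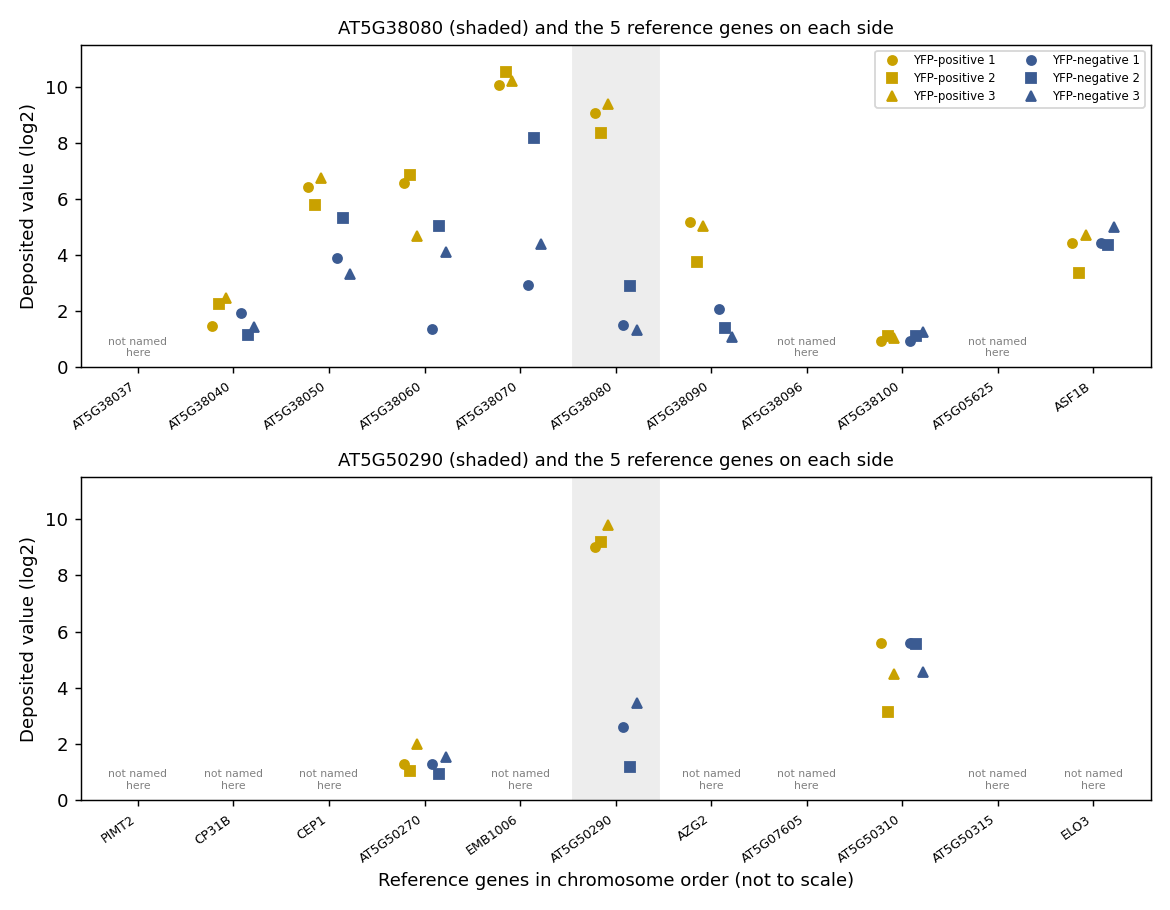
Deposited log2 values (vertical axis) of the members (shaded) and of the 5 reference genes on each side, in chromosome order and not to scale, with YFP-positive arrays in yellow, YFP-negative arrays in blue and the marker shape giving the replicate number. From AT5G38050 to AT5G38090 the yellow points lie mostly above the blue ones, with YFP-negative array 2 of AT5G38070 at 8.16, while the 2 measured neighbours of AT5G50290 show no such gap.

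The genes whose values ran most like each member were found after the values were seen, by the root mean square distance over the 6 arrays once each gene was centred on its own mean. For AT5G38080 these were AT1G29380, AT1G34480 and AT4G00890, at distances of 0.40, 0.43 and 0.47 on the log2 scale, against a median of 3.61 over all genes. All 3 had their smallest within-number difference in number 2, at 5.21, 4.13 and 5.33. For AT5G50290 they were AT3G25573, AT3G01940 and AT5G08391, at 0.38, 0.41 and 0.53, against a median of 3.55.

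Within number 2, AT3G25573 differed by 7.5 and AT3G01940 by 8.27, the largest of their 3 differences, as in AT5G50290. Their YFP-negative values on array 2 were dim as well, at 1.85 and 3.27. AT5G08391 differed by 6.14, 6.28 and 6.31 in numbers 1 to 3, with little spread. The distance between the members themselves was 1.19, and 69 of the other genes lay nearer to AT5G38080 than AT5G50290 did. These distances rest on the same arrays and the same contrast as the choice of the members and are a description.

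**Figure D4:**
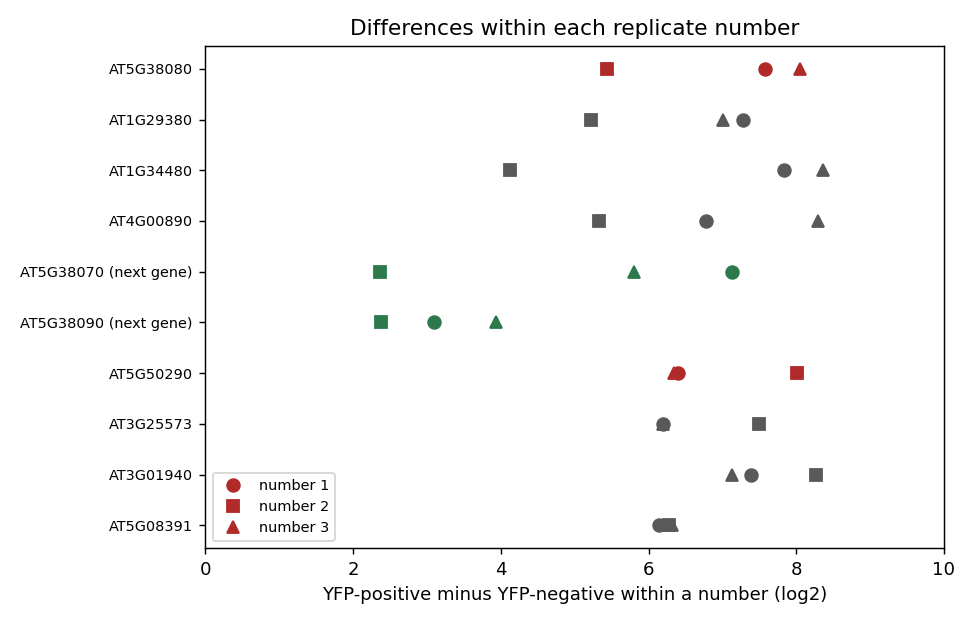
Log2 difference of YFP-positive minus YFP-negative (horizontal axis) within replicate numbers 1, 2 and 3 (marker shapes) for the members in red, the genes that ran most like each of them in grey beneath it, and the genes next to AT5G38080 in green. Number 2 is the smallest difference in the rows of AT5G38080, where it is 5.44, of its 3 alike genes and of its neighbours, and the largest in those of AT5G50290, where it is 8.01, of AT3G25573 and of AT3G01940.

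The phloem label itself could be checked with few markers. Of 61 marker genes in lists for 6 kinds of cells, 14 were measured under a name, and SEOR1 and APL, a transcription factor of phloem identity, were not analysed here. In limma 0 of the 14 were called, against 179 of all 16550 genes. An unadjusted p under 0.05 was reached by 2 (and by 7.96% of all genes). These were CLE45, which was higher in YFP-positive cells, and the mesophyll gene PSBW, which was lower. With the replicate block 1 of the 14 was called, against 90 of all 16550 genes. The called gene, CLE45, encodes a signalling peptide of early phloem and stood at 4.40, 3.47 and 4.56 on YFP-positive arrays and 2.20, 1.44 and 2.34 on YFP-negative arrays, without overlap (adjusted p = 0.0951 in limma, or 0.0444 with the block).

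All 5 measured of 23 sieve element and early phloem genes had differences above 0, as did 45.3% of all genes. Their median was 0.73 on the log2 scale, against -0.04 over all genes. The groups overlapped in OPS, CLE25 and CLE26, with differences of 0.73, 0.13 and 0.35. That of CLE26 was 0 with values under 3 set to 3. In CLE45 and PEAR2 the groups did not overlap, in PEAR2 by a gap of 0.02. The median difference was -0.60 for the 2 of 8 companion cell and phloem parenchyma genes and 0.53 for the 2 of 7 procambium and cambium genes. For GUT2, the only measured of 11 xylem genes, the difference was -0.49. The median was -0.92 for the 2 of 7 mesophyll genes and -0.71 for the 2 of 5 epidermis and guard cell genes, FAMA and MUTE. With values under 3 set to 3, the difference was -0.17 for GUT2 and 0 for MUTE and for the procambium gene MOL1. That of FAMA was then -0.81 and rested on a value of 5.42 on YFP-negative array 3, its only value above 3. So few members do not describe these cell types, and how AT5G50290 and AT5G38080 relate to markers of sieve elements was not tested.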

How the data were processed

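The table deposited by the authors holds log2 values of 38408 probe sets on 6 arrays. The submitters' processing notes name RMA; which version, and with what settings, is not given in the sources used here. That the scale is log2 was judged from the range of the values, -0.11 to 13.39, and from what RMA usually gives. Before labelling, RNA was amplified (NuGEN Ovation), per the labels' protocols. Array medians ran from 2.10 to 2.92, and how arrays were put on a common scale is not known; distributions were kept as deposited.

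Genes were named through the platform's annotation and the RefSeq gene table of TAIR10.1, in which 16411 of 16550 gene IDs were found. Exactly 1 gene was paired with 16722 probe sets, several with 759, and 20927 are unnamed here. No build is named for the arrays, so the reference gave names and gene order only, and no coordinates are printed.

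The groups were compared in R 4.3.3 with lmFit and eBayes of limma 3.58.1. The main fit held no term for the replicate number, and the fit with a replicate block added it. P-values are two-sided and were adjusted over all 16550 genes by the Benjamini-Hochberg method, and genes under 0.05 were called. The fit was run on simulated arrays drawn independently of each other, with no effect of the replicate number. That run therefore says nothing about arrays that share a replicate number or identical values. Members, lists and tests were chosen with earlier results of these data known. Both members are named with all values, and further genes were named as nearest to a cut-off, next to a member or on a marker list; the genes farther along the chromosome and those most alike were chosen after values were seen. A planned search of promoters and proteins was not run.

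Replicate numbers come from the titles. Deviations from group means correlated across genes at 0.664, 0.607 and 0.489 between same-numbered arrays. Between others they correlated at -0.475 to -0.185. Deviations from a group mean cancel across its arrays, so positive same-numbered correlations make the others negative on average. The negative values are therefore no separate evidence. From the same-numbered correlations, the numbers were taken to pair the arrays. The within-number differences and the fit with the replicate block use this pairing. The SEs and adjusted p-values of the main fit ignore it. Values were identical on the 2 arrays of number 1 for 13489 probe sets, of number 2 for 1961 and of number 3 for 1860, for a cause that was not tested. Over genes with unequal values the same-numbered correlations were 0.618, 0.602 and 0.480. Both members had unequal values in every number. Precision is limited by 3 arrays per group.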

Additional observations from a re-analysis of the deposited data

Results flagged for a closer look

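Probe sets that are unnamed here, 20927 in number, were outside the comparison of named genes. Of these, 3 met the same cut-offs, with YFP-positive values from 8.16 to 10.39 and YFP-negative values from 1.83 to 3.93 on the log2 scale. They were noted because a signal above that of YFP-negative cells lay in data outside the named genes. With 3 arrays in each group, single outlying arrays were not tested for.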

How the results depend on the processing

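The 9 genes that met the cut-offs of 8 and 4 became 4 at cut-offs of 9 and 3 (neither member among them). They became 56 at 7 and 5, 12 after quantile normalization and 14 with each array centred on its median. Leaving out arrays, which leaves fewer values to meet the rule, gave 9 to 64, the highest without both arrays of number 2 (chosen after seeing the data), 28 without YFP-positive replicate 2 and 43 without YFP-negative replicate 2. In each of these except the cut-offs of 9 and 3, both members met the rule. Leaving out arrays or loosening the cut-offs to 7 and 5 cannot remove a member, so nothing is read from that. Once the genes left out by name were removed, 2 genes remained as deposited and 0 at cut-offs of 9 and 3. There were 44 at 7 and 5, 6 after quantile normalization and 7 with median centring, so the number of members depended on the scaling of the arrays. In limma 179 genes were called, against 90 with the replicate block, 327 with a trended robust prior, 338 without dim genes and 384 with median centring, where 69.0% of calls were higher in YFP-positive cells against 79.3%. Leaving out arrays gave 37 to 164 (37 without YFP-positive replicate 3, 38 without YFP-negative replicate 3, 81 without YFP-positive replicate 1, 94 without YFP-positive replicate 2). Of the 2 members, 1 was called with the replicate block, and 1 to 2 when arrays were left out. The cause of these changes was not tested. The median log2 difference of the members, 6.97, was 6.06 with values under 3 set to 3, 6.73 within number 2, and 6.74 to 7.15 when arrays were left out. No difference of either member changed sign in any of the 12 other limma settings. The cut-offs of 8 and 4 left little room for such a change, so this is a description only.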
